A study of Mus musculus with 24 samples.

Results

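Postmitotic transcription factors of the Ebf, Onecut and POU families, together with the forkhead factor Foxp1, were followed through sorted cells of 2 stem cell-derived motor neuron cultures. The 9 genes were taken by name from a table of 22889 entries: Ebf1, Ebf2, Ebf3, Onecut1, Onecut2, Onecut3, Pou3f1, Pou4f1 and Foxp1. All 9 were in the table and all 9 passed the filter on low values, which asked for a value above 0 in at least 2 samples.

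The samples were 24 bulk poly(A) RNA libraries from mouse embryonic stem cells, 6 in each of 4 groups. Oculomotor neuron (OMN) cultures came from an Islet1-GFP line in which a nestin enhancer drove Phox2a in neural progenitors, and were patterned as embryoid bodies for 5 days with 250 nM of the Smoothened agonist SAG and 100 ng/ml Fgf8. Spinal motor neuron (SC) cultures came from an Hb9-GFP line, where Hb9 is the protein of Mnx1, and were patterned for 5 days with 500 nM SAG and 100 nM retinoic acid. Each culture was sorted into a GFP-positive and a GFP-negative fraction. The reporter gene, the cell line, the Phox2a transgene and the morphogens all changed together between the cultures, so their parts in any difference cannot be told apart. Nothing in the labels says whether samples of a group came from separate differentiations, so p-values measure the spread between these samples, which may be technical. Fewer cells of a type and less RNA per cell cannot be told apart in bulk libraries.

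Ebf proteins are helix-loop-helix factors that come on as neural cells leave the cell cycle, and they act in the differentiation and migration of young neurons. Onecut proteins carry a cut domain beside a homeodomain, and in developing spinal motor neurons they help to maintain Isl1. POU proteins pair a POU-specific domain with a homeodomain: Pou4f1 (Brn3a) is best known from sensory neurons, where it can accompany Isl1, and from midbrain neurons outside the motor nuclei. Pou3f1 (Oct6 or Scip) and Foxp1 mark particular groups of spinal motor neurons, Foxp1 being the factor that sets apart the limb-innervating lateral column.

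The table gave RPKM, a read density scaled by transcript length and library size, so levels of different genes could be compared per length. Depth, estimated from the steps in the values, ran from 752529 to 7675428 reads, with 752529 to 4642207 in replicates 1 to 4 and 4822576 to 7675428 in replicates 5 and 6. The reporter genes followed the labels in most libraries: Isl1 was at 141 to 369 RPKM in OMN GFP-positive and 0.696 to 1.87 in OMN GFP-negative samples. Mnx1 was at 43.1 to 149 RPKM in SC GFP-positive samples and at or under 6.91 in OMN GFP-positive samples. The exception was replicate 4 of the spinal culture, whose fractions held alike levels of Mnx1 (43.1 and 69.4 RPKM, GFP-positive and GFP-negative), Isl1 (7.63 and 8.56) and the progenitor factor Sox2 (132 and 138). Differences of the 9 genes that use spinal samples are therefore also given without both libraries of replicate 4. In the SC GFP-negative sample 2, 68.8% of the summed RPKM lay in 3 predicted gene models.

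The genes are spread over the genome, with Ebf2 and Pou4f1 on the same chromosome. In GRCm38 coordinates, Ebf1 lies at chr11:44617317-45008091 on the plus strand, Ebf2 at chr14:67233292-67430918 (plus) and Ebf3 at chr7:137193673-137314445 (minus). Onecut1 lies at chr9:74861921-74891781 (plus), Onecut2 at chr18:64340020-64400987 (plus) and Onecut3 at chr10:80494835-80517276 (plus). Pou3f1 lies at chr4:124656807-124660655 (plus), Pou4f1 at chr14:104461676-104467999 (minus) and Foxp1 at chr6:98925338-99522721 (minus).

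Upstream sequence was read for genes that were higher together in OMN GFP-positive than in OMN GFP-negative cells. Windows for 5 of the 9 genes were read from the RefSeq promoter table (GRCm38.p6), with the chromosome of Onecut2 left out. The 3 printed here are the 250 bases before the start of Ebf3 (chr7:137314446-137314695, minus strand), Onecut1 (chr9:74861671-74861920, plus strand) and Pou4f1 (chr14:104468000-104468249, minus strand), 5′ to 3′ on the strand of the gene. They were chosen because each gene has a single listed window that ends at the annotated gene boundary, and capitals mark E-boxes (CANNTG), the letters read by proneural helix-loop-helix factors.

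Ebf3: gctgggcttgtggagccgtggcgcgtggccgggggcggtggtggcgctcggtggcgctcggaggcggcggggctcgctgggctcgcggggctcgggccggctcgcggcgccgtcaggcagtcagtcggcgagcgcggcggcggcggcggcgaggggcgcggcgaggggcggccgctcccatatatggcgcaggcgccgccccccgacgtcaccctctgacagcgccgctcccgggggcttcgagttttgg

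Onecut1: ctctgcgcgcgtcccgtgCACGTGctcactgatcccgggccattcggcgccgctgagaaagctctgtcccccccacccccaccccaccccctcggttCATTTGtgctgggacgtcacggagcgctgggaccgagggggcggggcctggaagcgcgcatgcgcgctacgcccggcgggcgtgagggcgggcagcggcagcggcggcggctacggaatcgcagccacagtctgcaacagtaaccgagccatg

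Pou4f1: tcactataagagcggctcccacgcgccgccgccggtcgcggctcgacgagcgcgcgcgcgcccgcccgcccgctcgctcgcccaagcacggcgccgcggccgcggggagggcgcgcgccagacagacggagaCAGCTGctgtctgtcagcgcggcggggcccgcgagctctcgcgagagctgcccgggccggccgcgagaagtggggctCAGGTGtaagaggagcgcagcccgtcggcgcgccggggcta

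All 3 windows were rich in G, C and CpG. The Ebf3 window was 80.0% G or C with 43 CpG, the Onecut1 window 71.6% with 31 CpG and the Pou4f1 window 78.0% with 47 CpG, against medians of 52.4% and 6 CpG over all 32851 windows of the table. The Onecut1 and Pou4f1 windows held 2 E-boxes each and the Ebf3 window 0, where 66.2% of all windows held at least 1. The 8 windows read, none of them of Ebf2, Onecut2, Onecut3 or Pou3f1, were searched on either strand. None held the palindrome of Ebf proteins (TCCC and GGGA with any pair of bases between, in 0.78% of all windows). None held the Onecut letters ATCGAT or their variant ATCAAT (in 7.4%), or the POU octamer ATGCAAAT (in 1.6%). A match or its absence in 250 bases is a description of these letters only.

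In the OMN culture, 7 of the 9 genes were higher in GFP-positive than in GFP-negative cells, and the 3 Ebf and 3 Onecut genes of the 9 were among them. The comparison asks which genes the sorted Isl1-expressing neurons hold beyond the cells around them. All genes were tested with limma on log2(RPKM + 1), with p-values adjusted by Benjamini-Hochberg over all genes and a threshold of 0.05. By that test 6.15% of the 22179 genes tested were called (3.81% higher and 2.34% lower in the GFP-positive fraction), while 4.04% had all GFP-positive samples above the GFP-negative ones and 2.48% all below. The 7 genes did not overlap between the fractions, and Pou3f1 and Foxp1 did. The offset of 1 RPKM understates the difference wherever the GFP-negative level lies below it.

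Ebf1 was the most abundant of the 9 genes in OMN GFP-positive cells, at 37.1, 61.2 and 135 RPKM (lowest, median and highest of 6 samples). In OMN GFP-negative cells it was at 0.085, 0.646 and 0.988 RPKM. The difference was 5.40 on the log2(RPKM + 1) scale (SE 0.45, limma adjusted p = 4.24e-08). Ebf3 went from 0.0757, 0.19 and 0.36 RPKM in GFP-negative to 10.8, 17.8 and 36.7 RPKM in GFP-positive cells, a difference of 4.03 (SE 0.41, limma adjusted p = 7.50e-07). Ebf2, which shares the DNA-binding domain of these paralogs, stood at 6.82, 16.8 and 38.6 RPKM in GFP-positive and 0.497, 1.04 and 2.46 in GFP-negative cells (difference 3.00, SE 0.53, limma adjusted p = 0.000903). For each of these 3 Ebf genes the lowest GFP-positive library lay above the highest GFP-negative library.

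Onecut2 was the dominant Onecut gene of the OMN GFP-positive cells, at 21.3, 37.2 and 69.6 RPKM against 0.434, 0.563 and 2.71 RPKM in GFP-negative cells (difference 4.39, SE 0.44, limma adjusted p = 6.18e-07). Onecut1 was at 3.40, 7.11 and 18.1 RPKM in GFP-positive cells and at 0, 0.0989 and 0.18 in GFP-negative cells (difference 2.90, SE 0.42, limma adjusted p = 9.74e-05). Onecut3 was the weakest of the 3, at 1.13, 2.57 and 19.8 RPKM against 0.0337, 0.0606 and 0.621 RPKM (difference 1.98, SE 0.42, limma adjusted p = 0.00459). In reads, the GFP-negative Onecut3 values were 1 read in each of 5 libraries and 4 reads in replicate 4, and the GFP-positive values were 21 to 173 reads. With replicates 1 to 4 alone, Onecut3 no longer passed (difference 1.80, limma adjusted p = 0.154).

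Pou4f1 was at 4.94, 7.09 and 23.6 RPKM in OMN GFP-positive and 0.159, 0.511 and 1.48 RPKM in GFP-negative cells, with no overlap (difference 2.72, SE 0.38, limma adjusted p = 6.37e-05). Its highest values were in replicates 1 and 2 (23.6 and 16.4 RPKM), and replicates 3 to 6 lay at 4.94 to 7.42. Pou3f1 spread over a wide range in both fractions, from 1.67 to 35.8 RPKM in GFP-positive and from 0.377 to 27.4 in GFP-negative cells (difference 0.31, 95% interval -1.33 to 1.94, limma adjusted p = 0.970). Foxp1 was at 4.35 to 11.7 RPKM in GFP-positive and 5.17 to 14.8 in GFP-negative cells (difference -0.46, 95% interval -1.17 to 0.26, limma adjusted p = 0.584). Foxp1 was lower in the GFP-positive fraction of 5 of the 6 replicates.

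**Figure D1:**
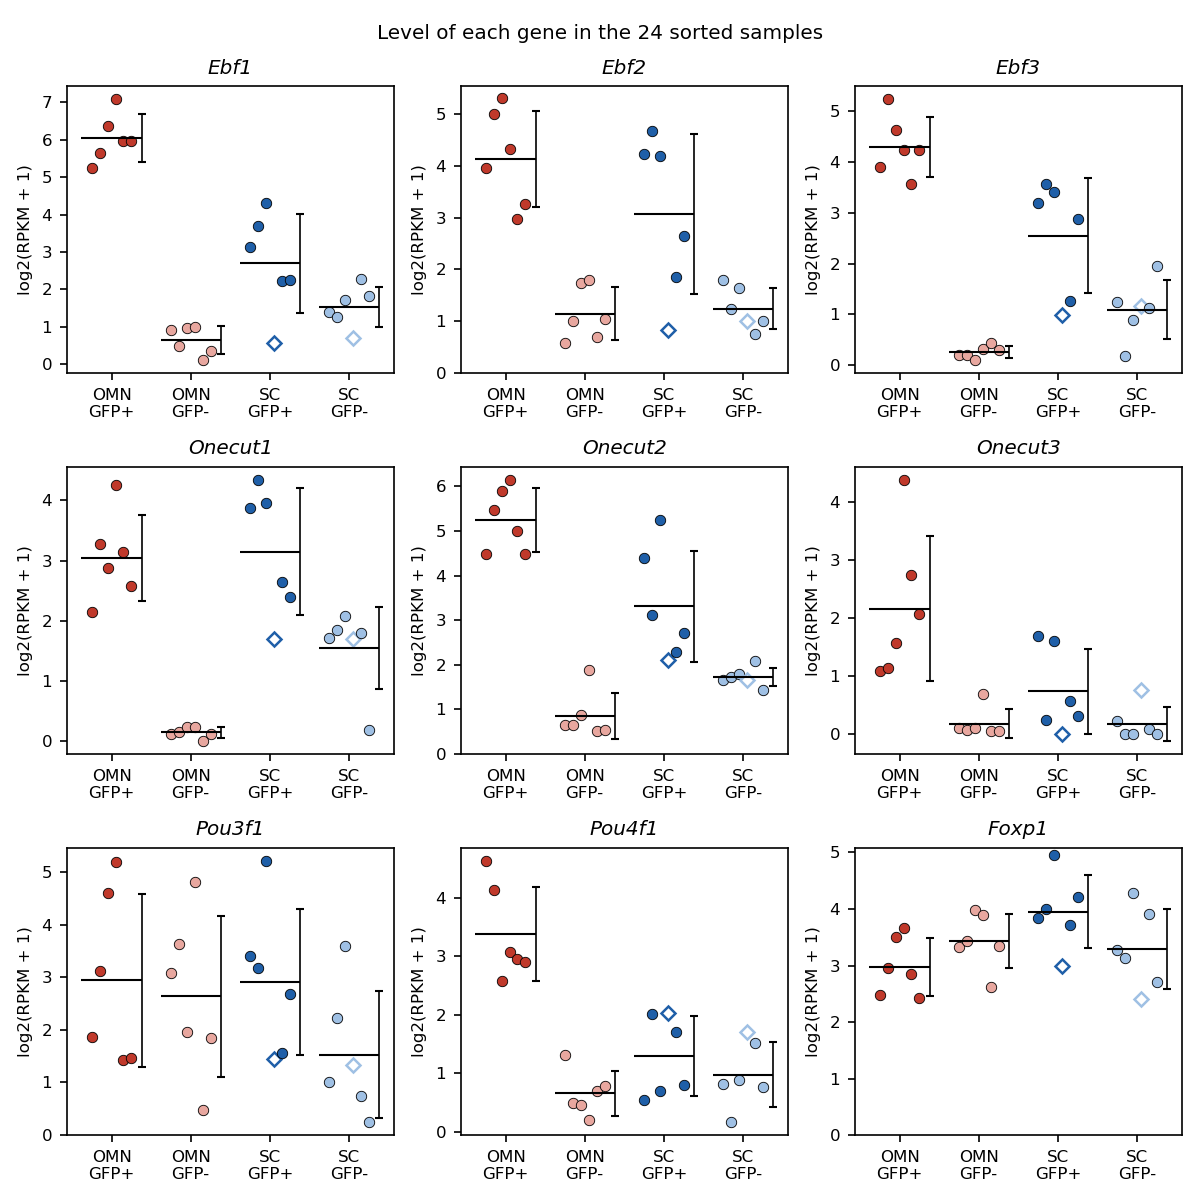
Level of each of the 9 genes as log2(RPKM + 1) in the 6 samples of each group, replicates 1 to 6 from left to right; lines and bars give the mean and SD, and open diamonds are the spinal samples of replicate 4. The Ebf and Onecut genes and Pou4f1 stand in OMN GFP-positive samples above all OMN GFP-negative samples, while Pou3f1 and Foxp1 overlap between all 4 groups.

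Other genes of the OMN fractions moved with this step. Of 12 pan-neuronal genes 11 were higher in GFP-positive cells and 0 lower, with a median difference of 4.39 on the log2 scale against 0 over all genes tested. Their summed level was 1813 to 2863 RPKM in GFP-positive and 25.5 to 109 RPKM in GFP-negative samples. Of 8 pluripotency genes 6 were lower in the GFP-positive fraction (summed 1.01 to 266 RPKM against 730 to 9882 in the GFP-negative fraction), and of 12 genes of progenitors and dividing cells 5 were lower. The part of these mixtures in the differences of the 7 genes was not tested. The 9 genes themselves had a median difference of 2.90.

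Among GFP-positive cells, Ebf1 was higher in OMN than in SC. It was the 1 gene of the 9 called when OMN and SC GFP-positive samples were compared, where 0.603% of 19240 genes were called (0.353% higher and 0.249% lower in OMN). This comparison asks how the Islet1-GFP-positive cells of OMN cultures differ from the Hb9-GFP-positive cells of SC cultures. In SC GFP-positive cells Ebf1 was at 0.472, 5.78 and 18.8 RPKM (lowest, median and highest), below all 6 OMN GFP-positive samples. The means were 70.6 ± 34.6 RPKM in OMN and 7.75 ± 6.73 in SC (SD, n = 6 each), a 9.12-fold ratio, and the difference was 3.35 on the log2(RPKM + 1) scale (SE 0.55, limma adjusted p = 0.0117). It was 3.16 within replicates 1 to 4 and 3.73 within replicates 5 and 6, and 2.92 without spinal replicate 4 (limma adjusted p = 0.00798). In a fit of replicates 1 to 4 alone it did not pass (limma adjusted p = 0.244). Nor did it pass with the replicate number as a block (limma adjusted p = 0.0730).

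Lists of pan-neuronal, pluripotency and progenitor genes were read beside this comparison, and none of their genes passed. The pluripotency genes summed to 15.6 to 12420 RPKM in SC and 1.01 to 266 in OMN (0 of 8 called, median difference -1.64). The pan-neuronal genes summed to 119 to 3494 RPKM in SC and 1813 to 2863 in OMN (0 of 12 called, median difference 1.08, against -0.04 over all genes tested). Genes of progenitors and dividing cells summed to 404 to 1595 RPKM in SC and 186 to 642 in OMN (0 of 12 called, median difference -0.73), and Sox2 among them differed by -2.16 (limma adjusted p = 0.177). Their part in the differences of the 9 genes was not tested.

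The other Ebf genes did not pass in the fit of the 12 GFP-positive samples. Ebf3 was at 0.999, 7.23 and 10.9 RPKM in SC GFP-positive cells, with 5 of the 6 OMN samples above all SC samples (difference 1.75, 95% interval 0.70 to 2.79, limma adjusted p = 0.163). Ebf2 was at 0.776, 11.3 and 24.4 RPKM in SC GFP-positive cells and overlapped broadly with OMN (difference 1.07, 95% interval -0.35 to 2.49, limma adjusted p = 0.623). Without spinal replicate 4 the difference was 1.44 for Ebf3 (limma adjusted p = 0.221) and 0.62 for Ebf2 (limma adjusted p = 0.758). With all 24 samples in the fit Ebf3 passed (limma adjusted p = 0.0248) and Ebf2 did not. That fit called 342 of 22179 genes. The makeup of the family is described by the share of each gene. Ebf1 was 41.2% to 76.9% (median 62.3%) of the summed RPKM of the 4 Ebf genes in OMN GFP-positive samples and 12.1% to 40.3% (median 22.0%) in SC GFP-positive samples, with no overlap. Ebf2 was 8.6% to 26.5% in OMN and 19.9% to 49.3% in SC. Ebf4, the paralog outside the 9, was 0.9% to 5.6% in OMN and 6.7% to 42.5% in SC, the highest share being in spinal replicate 4, where the summed Ebf level was lowest.

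None of the Onecut genes passed between the GFP-positive cells. Onecut1 overlapped throughout, at 2.24, 9.42 and 19.2 RPKM in SC (difference -0.10, 95% interval -1.16 to 0.95, limma adjusted p = 0.964), and it was the 1 gene of the 3 Ebf and 3 Onecut genes whose median was higher in SC. Onecut2 was at 3.29, 6.63 and 36.7 RPKM in SC GFP-positive cells, and 3 of 6 OMN samples exceeded all SC samples (difference 1.94, 95% interval 0.79 to 3.09, limma adjusted p = 0.158). Onecut2 passed with all 24 samples in the fit (limma adjusted p = 0.0196). Onecut3 was at 0, 0.369 and 2.24 RPKM in SC (difference 1.42, limma adjusted p = 0.396). Without spinal replicate 4 the differences were -0.39 for Onecut1, 1.70 for Onecut2 and 1.27 for Onecut3, with limma adjusted p between 0.239 and 0.822. Onecut1 made up 9.5% to 17.6% of the summed Onecut RPKM in OMN GFP-positive samples and 27.2% to 70.9% in SC GFP-positive samples, again with no overlap. These shares are descriptions, and no test was run on them.

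**Figure D2:**
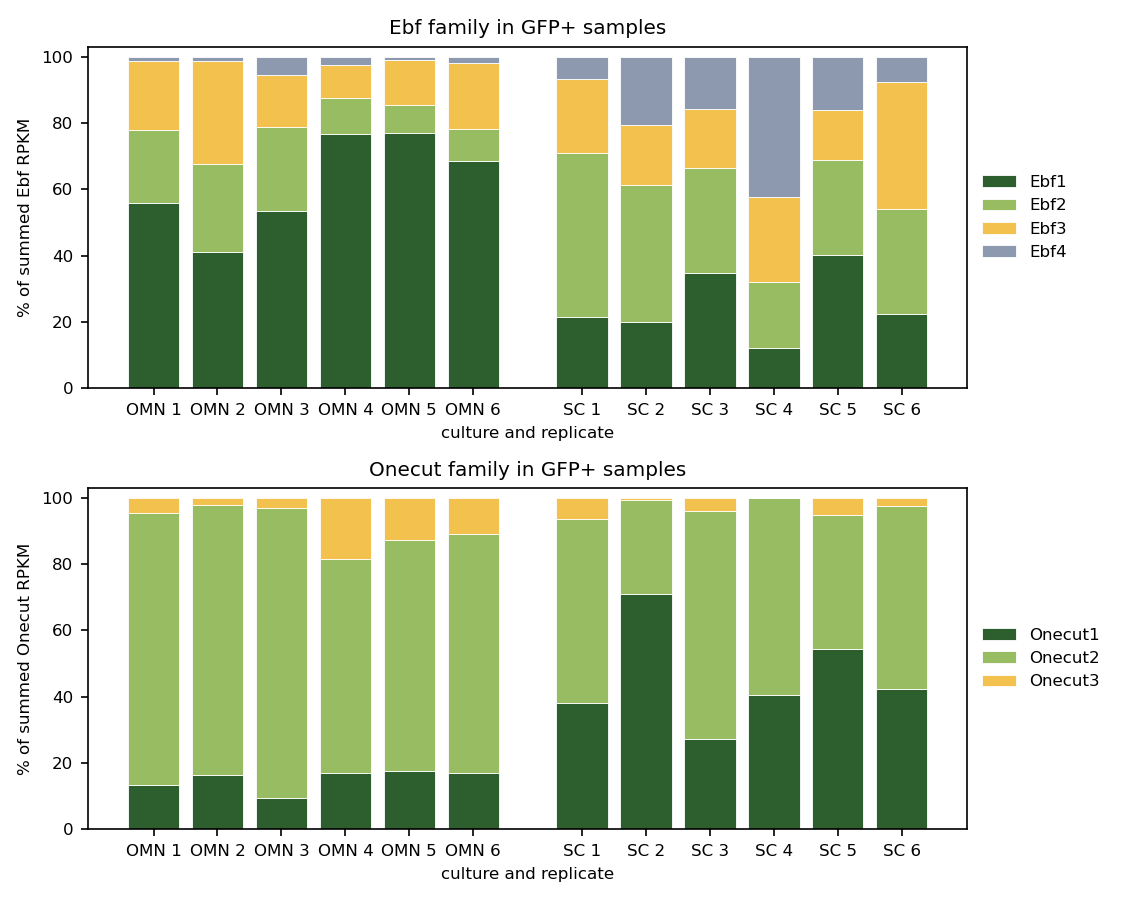
Share of each gene in the summed RPKM of the Ebf family (top) and of the Onecut family (bottom) for each GFP-positive sample, in percent. Ebf1 holds 41.2% to 76.9% of the Ebf total in OMN and at most 40.3% in SC samples, and Onecut1 at most 17.6% of the Onecut total in OMN and at least 27.2% in SC samples.

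Pou4f1 was higher in every OMN GFP-positive sample than in any SC GFP-positive sample, yet narrowly missed the threshold. It was at 0.458, 1.5 and 3.07 RPKM in SC GFP-positive cells, where 4.94 was the lowest OMN value (difference 2.08, 95% interval 1.13 to 3.03, limma adjusted p = 0.0561). Ebf1 and Pou4f1 were the 2 genes with no overlap here, as were 0.733% of all genes tested with OMN above SC. Without spinal replicate 4 the Pou4f1 difference was 2.22 (limma adjusted p = 0.0520). Pou4f1 passed with all 24 samples in the fit, an offset of 0.1 RPKM, median-ratio scaling, sample quality weights or a stricter filter. It did not pass with the replicate number as a block (limma adjusted p = 0.106) or with replicates 1 to 4 alone (limma adjusted p = 0.315). Of the 12 fits that each left out 1 library, 1 called it.

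Because Pou4f1 can mark Isl1 neurons that are not motor neurons, a list of sensory and other non-motor markers was read beside it. Among the 8 of its genes that are reported here and have a value, 2 were higher in OMN GFP-positive than in OMN GFP-negative cells (Pou4f1 and its paralog Pou4f2) and 0 lower. Pou4f2 was at 0 to 6.32 RPKM in OMN GFP-positive and at most 0.463 in GFP-negative samples (difference 1.63, limma adjusted p = 0.00112). The homeobox genes Tlx3 and Barhl1 were at 0 in all 6 OMN GFP-positive samples, Prrxl1 was at most 1.77 RPKM and Tbr1 at most 0.0285. Runx1 was at 0.165 to 2.99 RPKM in OMN GFP-positive and at most 0.384 in GFP-negative samples. Runx3 was at most 0.848 and 0.593 RPKM in these fractions. Between OMN and SC GFP-positive cells, 0 of the 7 genes tested passed. Pou4f2 differed by 1.74 there (limma adjusted p = 0.0831) and was at most 0.163 RPKM in SC GFP-positive samples. No summed level is given, since the list is not reported whole. What part such neurons had in the Pou4f1 level was not tested.

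The markers of spinal columns, Foxp1 and Pou3f1, did not pass between the cultures. Foxp1 was at 6.91, 14.2 and 30.0 RPKM in SC GFP-positive cells and had its highest median there, but all 4 groups overlapped (OMN minus SC -0.97, 95% interval -1.72 to -0.23, limma adjusted p = 0.317). Without spinal replicate 4, the lowest of the SC GFP-positive samples, it was -1.17 (limma adjusted p = 0.173). Pou3f1 was at 1.73, 6.71 and 36.2 RPKM in SC GFP-positive cells (OMN minus SC 0.03, 95% interval -1.66 to 1.72, limma adjusted p = 0.996). Its direction turned without spinal replicate 4, to -0.26 (limma adjusted p = 0.947). Of the 11 genes on the list of spinal columns, which holds both, 2 were lower in OMN and 0 higher: the LIM homeodomain genes Lhx3 (difference -4.50, limma adjusted p = 0.00833) and Lhx1 (difference -3.12, limma adjusted p = 0.00117). Lhx3 was at 4.12 to 84.4 RPKM and Lhx1 at 4.43 to 22.8 RPKM in SC GFP-positive cells. The retinoic acid-synthesising enzyme Aldh1a2, which limb-innervating motor neurons express, was at 0 to 2.55 RPKM there.

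In the spinal culture none of the 9 genes passed between the fractions, where limma called 1.23% of the 22179 genes (0.397% higher and 0.83% lower in GFP-positive). Values were higher in the GFP-positive fraction for all 9 by difference, and the median of the 9 was 1.39. Onecut1 had the smallest p, at 0.137, 2.37 and 3.23 RPKM in SC GFP-negative cells (difference 1.60, SE 0.42, limma adjusted p = 0.0646). Onecut2 was at 1.72, 2.24 and 3.23 RPKM in SC GFP-negative cells, and was the 1 gene whose fractions did not overlap (difference 1.58, SE 0.44, limma adjusted p = 0.0796), against 0.0721% of all genes with GFP-positive above GFP-negative. The fractions were only narrowly apart. The lowest GFP-positive value was 3.29 RPKM in replicate 4, and the highest GFP-negative value was 3.23 RPKM in replicate 5. Ebf3 (difference 1.46, limma adjusted p = 0.0874), Ebf2 (difference 1.83, limma adjusted p = 0.106) and Ebf1 (difference 1.16, limma adjusted p = 0.314) followed.

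These calls turned on spinal replicate 4. Without both of its libraries, 5 genes passed: Ebf1 (difference 1.42, limma adjusted p = 0.0484), Ebf2 (2.23, 0.0143), Ebf3 (1.78, 0.0137), Onecut1 (1.91, 0.0126) and Onecut2 (1.81, 0.0329). Over all genes, that refit called 633 of 21837 (296 higher), against 272 of 22179 (88 higher) in the main fit. Leaving out the GFP-positive library alone gave the same 5, with 634 of 22037 genes called. With the replicate number as a block, which the fractions of a culture share, 3 passed in the fit of all 24 samples: Onecut1 (limma adjusted p = 0.0254), Ebf2 (limma adjusted p = 0.0285) and Onecut2 (limma adjusted p = 0.0363). That blocked fit called 649 of 22179 genes in all (295 higher). In a blocked fit of the 12 spinal samples alone 0 of the 9 passed, and 0 of all 20877 genes. In SC GFP-positive samples, each of these 5 genes was highest in replicates 1 to 3, lower in replicates 5 and 6 and lowest in replicate 4. Ebf1, for example, was at 7.83, 11.9 and 18.8 RPKM in replicates 1 to 3, at 3.67 and 3.73 in replicates 5 and 6 and at 0.472 in replicate 4. The pan-neuronal genes summed to 693 to 3494 RPKM in replicates 1 to 3, 1200 and 1902 in replicates 5 and 6, and 119 in replicate 4.

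The POU genes, Foxp1 and Onecut3 did not pass between the spinal fractions under any alternative. Pou4f1 was at 0.126 to 2.27 RPKM in SC GFP-negative cells (difference 0.32, 95% interval -0.47 to 1.10, limma adjusted p = 0.854). Foxp1 was at 4.31 to 18.5 RPKM there, and higher in the GFP-positive fraction of 5 of 6 replicates (difference 0.67, 95% interval -0.05 to 1.38, limma adjusted p = 0.524). Pou3f1 was at 0.183 to 11.1 RPKM in SC GFP-negative cells and higher in the GFP-positive fraction of all 6 replicates (difference 1.39, 95% interval -0.24 to 3.03, limma adjusted p = 0.579). Onecut3 was at 0 in 3 of 6 SC GFP-negative samples and at most 14 reads in the others (difference 0.56, limma adjusted p = 0.719). Without spinal replicate 4 the differences were 0.32 for Pou4f1, 0.68 for Foxp1, 1.65 for Pou3f1 and 0.83 for Onecut3, with limma adjusted p between 0.406 and 0.823.

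**Figure D3:**
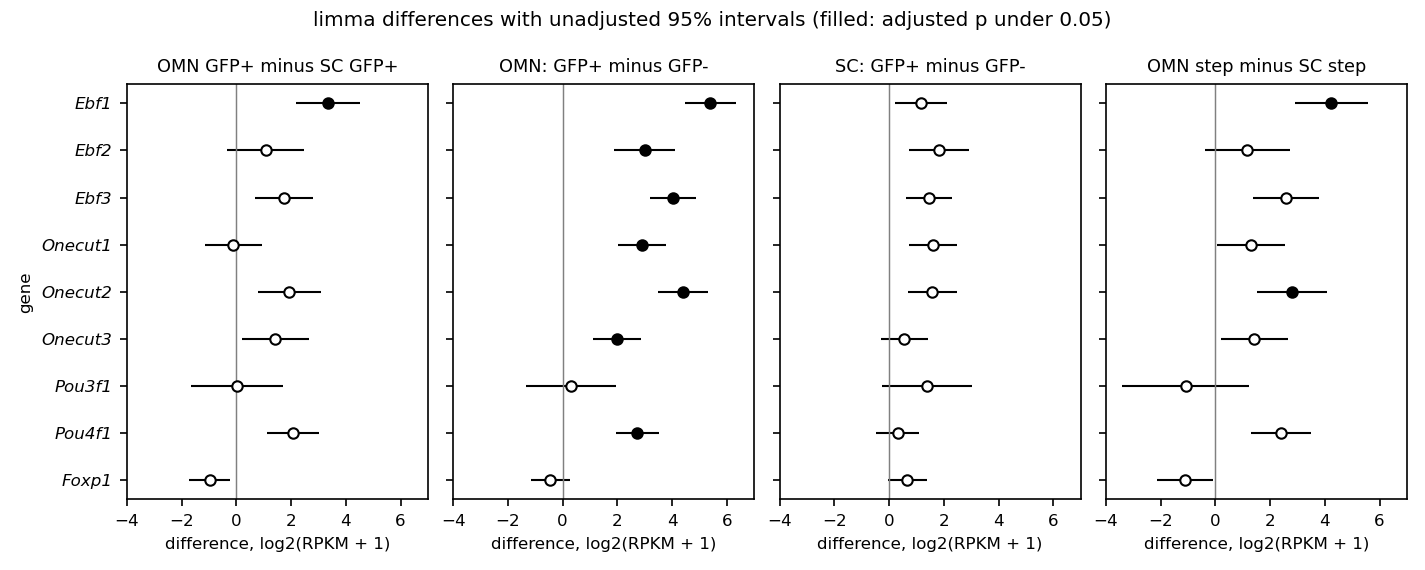
Differences of the 9 genes on the log2(RPKM + 1) scale with unadjusted 95% intervals, for OMN against SC GFP-positive cells, for GFP-positive against GFP-negative cells of each culture, and for the OMN step minus the SC step; filled points have a limma adjusted p under 0.05. The OMN fractions hold 7 filled points, the SC fractions 0, and the difference of the steps 2.

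Whether the fractions lay further apart in one culture than in the other was tested as an interaction of culture and fraction, which passed for 0.32% of 22179 genes (0.262% with the larger step in OMN and 0.0586% with the larger step in SC). Ebf1 and Onecut2 passed among the 9, both with the larger step in OMN. For Ebf1 the OMN step exceeded the SC step by 4.24 (SE 0.64, limma adjusted p = 0.00143), and by 3.97 without spinal replicate 4 (limma adjusted p = 0.000309). For Onecut2 it did so by 2.81 (SE 0.62, limma adjusted p = 0.0430), and by 2.58 without spinal replicate 4 (limma adjusted p = 0.0471). Ebf3 (2.58, limma adjusted p = 0.0506) and Pou4f1 (2.40, limma adjusted p = 0.0506) lay just past the threshold, and both passed without spinal replicate 4 (limma adjusted p = 0.0447 and 0.0307) and with the replicate block (limma adjusted p = 0.0417 and 0.0121). Foxp1 had a difference of -1.12 between the steps (95% interval -2.14 to -0.11, limma adjusted p = 0.610), and of -1.14 without spinal replicate 4 (limma adjusted p = 0.421). The Onecut2 call was held in 6 of the 24 fits that each left out 1 library, and the Ebf1 call in all 24. Without the SC GFP-negative sample 2, Onecut2 did not pass (limma adjusted p = 0.0585) while Ebf3 and Pou4f1 did (limma adjusted p = 0.0334 and 0.0342). With replicates 1 to 4 alone, none of the 9 passed. Over all genes, 228 of 21837 passed without spinal replicate 4 and 453 of 22179 with the block. The main fit called 71 of 22179.

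The step of the pan-neuronal genes also differed in its values between the cultures. Taken within each replicate number, the mean of the 12 pan-neuronal genes had a step of 3.91 to 5.23 on the log2 scale in OMN and of -0.14 to 4.35 in SC, where -0.14 was replicate 4 and 1.30 replicate 5. The Ebf1 step was 4.34 to 6.09 in OMN and -0.14 to 2.58 in SC. In spinal replicate 3, where the pan-neuronal step of 4.35 lay within the OMN range, the Ebf1 step was 2.58 and the Onecut2 step 3.44. The interaction was called for 2 of the 12 pan-neuronal genes, Elavl4 (2.83, limma adjusted p = 0.0278) and Nefm (3.95, limma adjusted p = 0.0351), with a median of 2.35. The part of unequal neuron content in the differences of Ebf1 and Onecut2 was not tested.

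**Figure D4:**
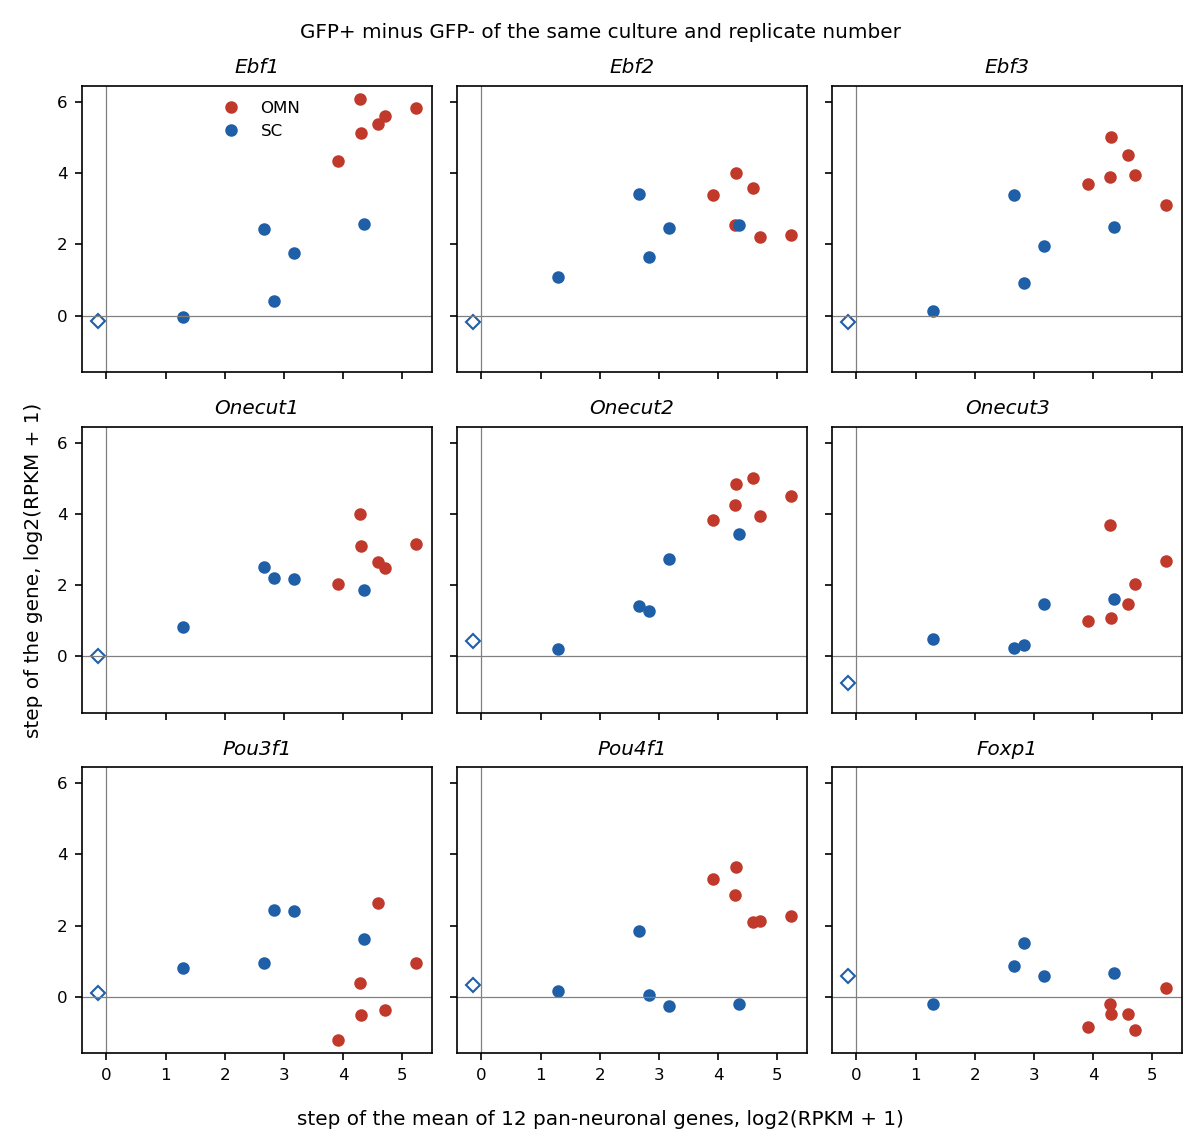
Difference of each gene between the GFP-positive and GFP-negative cells of the same culture and replicate number, on the log2(RPKM + 1) scale, against the step of the mean of 12 pan-neuronal genes; open diamonds are spinal replicate 4. The OMN points for Ebf1 lie at 4.34 to 6.09 and the SC points at or under 2.58, while the Foxp1 points lie at -0.93 to 0.23 in OMN and at -0.20 to 1.51 in SC.

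The GFP-negative fractions of the cultures, which hold the cells outside each reporter gate, gave 0 calls among the 9 genes, where limma called 0.96% of 22179 genes. All 9 overlapped, against 0.397% of genes with all OMN samples above SC and 0.87% with all below. The smallest p was that of Onecut1, at 0 to 0.18 RPKM in OMN and 0.137 to 3.23 RPKM in SC GFP-negative cells (difference -1.41, 95% interval -2.28 to -0.54, limma adjusted p = 0.129). Of the 6 SC samples 5 lay above all OMN samples, the exception being replicate 6 at 0.137 RPKM. Onecut1 passed with an offset of 0.1 RPKM (difference -3.19) and with sample quality weights. Ebf1 (-0.89), Ebf3 (-0.83) and Onecut2 (-0.88) also had lower values in OMN, Pou3f1 had higher ones (1.11), and the limma adjusted p of these 4 genes lay between 0.451 and 0.625. Ebf2, Onecut3, Pou4f1 and Foxp1 differed by -0.32 to 0.15. Without spinal replicate 4 the differences were -1.38 for Onecut1 (limma adjusted p = 0.0764), -1.06 for Ebf1, -0.82 for Ebf3, -0.89 for Onecut2, 1.08 for Pou3f1 and -0.18 to 0.12 for the other 4. The pan-neuronal genes summed to 79.8 to 455 RPKM in SC and 25.5 to 109 in OMN GFP-negative cells (0 of 12 called, median difference -1.73). Of 7 endoderm genes 3 were lower in OMN, the GATA factors Gata4 and Gata6 and the HMG factor Sox17. Of 8 mesenchyme genes 1 was lower, the receptor Pdgfra (difference -1.75, limma adjusted p = 0.0489), and 0 were higher. The mesenchyme list as a whole had a median difference of 0.02. Its values lay on both sides of 0, up to 1.58 for Twist1 (limma adjusted p = 0.172). Of 8 pluripotency genes 1 was higher in OMN, the Nodal co-receptor Tdgf1 (difference 4.00, limma adjusted p = 0.0178), with a median difference of 2.20 over the list and sums of 730 to 9882 RPKM in OMN and 109 to 5993 in SC. The part of these cells in the GFP-negative values was not tested.

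Ordered by median, OMN GFP-positive came first and SC GFP-positive second for Ebf1, Ebf2, Ebf3, Onecut2, Onecut3 and Pou4f1, and the GFP-negative fractions were last for all of these. Onecut1, Pou3f1 and Foxp1 had their highest median in SC GFP-positive cells. The neighbours that were fully apart in this order were OMN and SC GFP-positive cells for Ebf1 and Pou4f1, SC GFP-positive and SC GFP-negative cells for Onecut2, and OMN GFP-positive and SC GFP-negative cells for Onecut1. All other neighbours overlapped.

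Few relatives of the 9 genes passed. Of 3 Ebf relatives and cofactors (Ebf4 and the zinc finger partners Zfp423 and Zfp521), of 3 cut-homeobox relatives (Cux1, Cux2 and Satb1) and of 3 Foxp relatives, 0 passed in any of the comparisons. Ebf4 was at 0.666 to 8.46 RPKM in OMN GFP-positive and 1.29 to 12.2 in SC GFP-positive cells. Of the 8 POU relatives in the table, Pou3f3 passed between the cultures. It was at 0.0733 to 2.53 RPKM in OMN GFP-positive and 1.62 to 19.96 in SC GFP-positive cells (difference -2.73, limma adjusted p = 0.0354), and lower in OMN among GFP-negative cells too (difference -2.93, limma adjusted p = 0.00267). Pou3f2, a neural POU factor close to Pou3f1, was higher in OMN GFP-positive cells (15.9 to 25.4 RPKM) than in OMN GFP-negative cells (1.64 to 8.49 RPKM; difference 1.84, limma adjusted p = 0.0130), as was Pou4f2. Pou2f2 had the widest spread, at 3.37 to 134 RPKM in SC GFP-positive cells, and did not pass.

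Likeness between genes was described by Pearson's r of log2(RPKM + 1) across the 24 samples. It was 0.95 between Ebf1 and Onecut2, 0.93 between Ebf1 and Ebf3 and 0.93 between Ebf3 and Onecut2, the highest values among the 9. Other pairs of Ebf and Onecut genes went down to 0.64, between Onecut3 and both Ebf2 and Onecut1, which is below the 0.76 of Ebf1 and Pou4f1. These r values describe 24 libraries that fall into 4 groups and differ in neuron content, and they carry no test. With Isl1, r was 0.92 for Onecut2, 0.91 for Ebf3, 0.89 for Ebf1 and Onecut1, 0.71 for Pou4f1, 0.31 for Pou3f1 and 0.00 for Foxp1. With Mnx1 it was 0.58 for Onecut1 and 0.03 for Ebf1. Among 10855 genes with a mean of at least 1 RPKM, those most like Ebf1 were Mgll (r = 0.96), Snx18 (0.96) and Onecut2 (0.95), and those most like Onecut2 were St18 (0.95), Ebf1 (0.95) and Galnt9 (0.95). Sh2b2 (0.95), Lrrn2 (0.94) and Nhlh1 (0.94) were most like Ebf2, and Snx18 (0.97), St18 (0.96) and Arl4d (0.94) most like Ebf3. Lhx4 (0.95), Nhlh2 (0.94) and Myt1 (0.94) were most like Onecut1, and Ache (0.89), Fgf18 (0.86) and Hcn4 (0.85) most like Onecut3. Pou4f1 was most like Clvs1 (0.86), Rgs4 (0.86) and Angpt2 (0.85), Pou3f1 most like Ube4b (0.85), Rab11fip4 (0.84) and Mex3a (0.82), and Foxp1 most like Nr2f1 (0.75), Bach2 (0.74) and Dusp18 (0.74).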

How the data were processed

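The 24 mouse samples were grouped by the culture and fraction in their labels. Per the labels and the study's methods, the authors made SMART-seq2 libraries without molecular identifiers, mapped reads to mm10 with HISAT2 2.0.3 and deposited gene RPKM computed with rpkmforgenes, with their own comparisons run in DESeq2 1.12.4. Such libraries do not mark strand, so reads of antisense transcripts annotated within Ebf1, Ebf2, Ebf3 and Pou3f1 cannot be told apart from these genes. The 25 date-like names and 4 shared names were fitted but not named. Depth was estimated from RPKM steps in 5911 single-transcript genes, in which 95.9% to 97.8% of values under 10 reads lay within 2.0% of a whole number. Lower depth makes low values less certain.

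The test was limma 3.58.1 in R 4.3.3 on log2(RPKM + 1) (trended moderation, Benjamini-Hochberg over all genes above 0 in at least 2 samples of the fit, threshold 0.05), checked on simulated data. The 12 GFP-positive samples were fitted alone, and the other comparisons used all 24 in 4 groups. Fractions of a culture with the same number deviated together (r 0.38 to 0.73 in OMN and 0.42 to 0.66 in SC over 11952 genes), so those numbers were read as pairs. SC GFP-positive replicate 6 was an exception in that its best match was GFP-negative replicate 5. The main fits held no block for the pairs, and fits with the block are given as alternatives. The pairing is a pattern in the data, since the labels do not say what a number marks. Tables were handled in Python 3.11.15 with pandas 2.3.3, numpy 2.4.6 and matplotlib 3.10.9. The genes and lists were chosen with earlier results of these data known. A gene of the sensory list and a gene of the cut-homeobox list are not reported here, and the counts over these lists leave them out. The named genes were the 9, up to 4 called genes a list by adjusted p, and the 3 genes of highest Pearson r with each of the 9. Positions come from GENCODE M21 and promoter windows from RefSeq.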

Additional observations from a re-analysis of the deposited data

Results flagged for a closer look

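Among 36 sets of 6 samples (9 genes in 4 groups), 8 held a sample whose gap to its nearest neighbour was over 0.625 of the whole range, Dixon's 95% value for 6 samples. For normally distributed values, chance gives about 1 such sample in 20 sets. The values here were RPKM without a log, and the sets shared libraries, so that rate does not apply directly. In OMN replicate 4, Onecut1 (18.1 RPKM) and Onecut3 (19.8 RPKM) stood above the other GFP-positive samples, and Onecut2 (2.71 RPKM) and Onecut3 (0.621 RPKM, 4 reads) above the other GFP-negative samples. In the SC GFP-negative samples, Onecut1 was low in replicate 6 (0.137 RPKM) and Onecut3 high in replicate 4 (0.690 RPKM). Pou3f1 stood out in replicate 3 of both spinal fractions, at 36.2 RPKM in GFP-positive and 11.1 RPKM in GFP-negative cells.

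The GFP-positive and GFP-negative fractions lay further apart in OMN than in SC for Ebf1 (OMN step larger by 4.24, limma adjusted p = 0.00143) and Onecut2 (larger by 2.81, limma adjusted p = 0.0430). The Ebf1 step was above 0 in 6 of 6 OMN and 4 of 6 SC replicates, and the Onecut2 step in 6 of 6 of each.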

How the results depend on the processing

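Of 1044 refits of single differences, 945 kept their direction and side of the threshold, 23 lost a call, 48 gained one and 28 turned direction, all 28 of differences that were not called. The number called of the 9, where it moved, was as follows, and the causes were not tested. For OMN against SC GFP-positive cells 1 gene was called, and 2 with an offset of 0.1 RPKM, with genes above 1 RPKM in at least 2 samples, with median-ratio scaling or with quality weights, 4 with all 24 samples, and 0 with replicates 1 to 4 only. With the replicate block 0 were called, and Ebf1 had a difference of 3.35 (limma adjusted p = 0.0730). Same-numbered GFP-positive samples of the cultures deviated together in replicates 5 and 6 (r 0.71 and 0.60). They did not do so in every replicate (r = -0.17 in replicate 1). Leaving out 1 library gave 1 to 2, with Pou4f1 added without SC GFP-positive sample 2 and Onecut2 without sample 3. For GFP-negative cells 0 were called, and 1 with an offset of 0.1 RPKM or quality weights. For the OMN fractions 7 were called throughout, except 6 with replicates 1 to 4 only. For the SC fractions 0 were called, and 1 with genes above 1 RPKM, 3 with the replicate block, 5 without both spinal samples of replicate 4 (chosen after seeing the data), and 0 to 5 leaving out 1 library (5 without SC GFP-positive sample 4, 1 without sample 5). For the interaction 2 were called, and 3 with an offset of 0.1 RPKM (Ebf3 added), 4 with genes above 1 RPKM, median-ratio scaling, quality weights, the replicate block or without both spinal samples of replicate 4, 0 with replicates 1 to 4 only, and 1 to 4 leaving out 1 library (4 without SC GFP-negative sample 4). The block ended or added no other call of these counts. Over all genes, the SC fractions gave 633 calls without spinal replicate 4 and 649 with the block, against 272 in the main fit. The interaction gave 228 and 453, against 71. For OMN against SC GFP-positive cells, all 24 samples gave 342 and the block 73, against 116. Uncalled differences turned for Pou3f1 between GFP-positive cells (-0.78 with quality weights, -0.26 without spinal replicate 4) and between OMN fractions (-0.46 with quality weights), and between GFP-negative cells for Onecut3 (-0.046 with quality weights, -0.004 with replicates 1 to 4 only) and Foxp1 (-0.019 with quality weights, -0.029 without spinal replicate 4). Leaving out 1 library, uncalled differences that turned ranged from -0.393 to 0.135 for Onecut1 and -0.421 to 0.491 for Pou3f1 between GFP-positive cells, from -0.144 to 0.746 for Pou3f1 between OMN fractions, and, between GFP-negative cells, from -0.227 to 0.015 for Ebf2, -0.102 to 0.117 for Onecut3 and -0.029 to 0.345 for Foxp1. Replicates 1 to 4 were shallower than 5 and 6, which limits the values near 1 read. The methods of the study name different sequencer models and read lengths for the sorted samples, without saying which samples had which. Their part in the differences between replicates was not tested.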
